A study of Mus musculus with 29 samples.

Results

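Snhg11, small nucleolar RNA host gene 11, is 1 gene of the 6080 listed for sorted pyramidal neurons of the medial prefrontal cortex and of the 9872 listed for those of the amygdala, and it was followed over all 26 libraries of both regions. It was found by matching the stable part of its Ensembl identifier, ENSMUSG00000044349.15, to its symbol. The gene was selected on its prefrontal values in the 4 groups, above all the gap between Sus-T and Res-T with trauma, so its own levels and differences are given below as a description and without a test.

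The mice, B6.Cg-Tg(Thy1-YFP)HJrs/J, were a line in which a Thy1 promoter drives a yellow fluorescent protein in a subset of projection neurons, and every group carried this transgene. The groups were Sus-T with trauma (4 libraries in each region), Res-T with trauma (3 prefrontal and 4 amygdala libraries), Sus-T without trauma (2 in each region) and Res-T without trauma (4 prefrontal and 3 amygdala libraries). The labels give the cells as pyramidal neurons and name no age, and Res-T and Sus-T are the labels' own terms. As 9 mice are named in the design text and the amygdala has 13 libraries, some of these may share an animal, and the errors below measure only the spread between libraries.

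Host genes of small nucleolar RNAs (snoRNAs) carry these short RNAs in their introns. Splicing of the host transcript frees the introns, from which the snoRNAs are trimmed, and the spliced remainder is often a long RNA with no known protein product. snoRNAs guide the chemical modification of other RNAs, mostly ribosomal RNA, or have no known target. In mouse brain the spliced transcript of Snhg11 is known as a neuron-enriched long noncoding RNA.

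The gene lies on the plus strand of chromosome 2 at chr2:158375638-158386145 (GRCm38). GENCODE M21 lists 5 transcripts and types the gene as protein coding, whereas RefSeq types it as a long noncoding RNA with 1 transcript. The longest model, Snhg11-201, has 5 exons and a spliced length of 5864 bases, of which exon 5 takes 5207. The other 4 models comprise 2 with a retained intron and 2 marked for nonsense-mediated decay. The deposited value is per gene, so isoforms cannot be told apart.

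**Figure D1:**
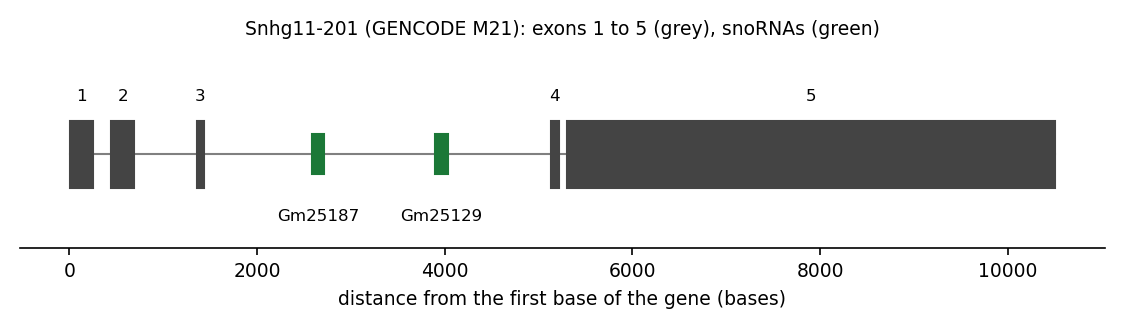
Exons 1 to 5 of isoform Snhg11-201 (grey boxes) and the 2 snoRNA genes in it (green boxes), placed by distance in bases from the first base of the gene. Both snoRNAs lie in intron 3, and exon 5 covers bases 5302 to 10508.

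Both snoRNA genes of the locus lie on its strand in intron 3 of Snhg11-201 and are 133 bases long in GENCODE M21. Gm25187 is at chr2:158378222-158378354 and Gm25129 at chr2:158379534-158379666. They are shown because they are what makes Snhg11 a host gene. Capitals mark the closing ACA, the 3-letter box near the 3′ end from which the H/ACA class of snoRNAs takes part of its name.
Gm25187: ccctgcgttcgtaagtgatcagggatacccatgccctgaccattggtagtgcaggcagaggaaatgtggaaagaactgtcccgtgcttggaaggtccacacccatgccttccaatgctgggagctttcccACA
Gm25129: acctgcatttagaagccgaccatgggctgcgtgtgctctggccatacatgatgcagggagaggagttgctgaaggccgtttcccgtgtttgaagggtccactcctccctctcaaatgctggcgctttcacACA
The pair has the same letter at 56 of 133 positions when set side by side without gaps, or 42.1%. Gm25187 also overlaps an exon of 1 other model, so reads from it can count towards Snhg11. The snoRNAs themselves were not analysed here.

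The 300 bases around the RefSeq start, 250 before it and 50 after it, are at chr2:158375463-158375762 on the plus strand (RefSeq, GRCm38.p6). They are given to show the start from which this transcript is made, with CG pairs in capitals.
Snhg11 promoter: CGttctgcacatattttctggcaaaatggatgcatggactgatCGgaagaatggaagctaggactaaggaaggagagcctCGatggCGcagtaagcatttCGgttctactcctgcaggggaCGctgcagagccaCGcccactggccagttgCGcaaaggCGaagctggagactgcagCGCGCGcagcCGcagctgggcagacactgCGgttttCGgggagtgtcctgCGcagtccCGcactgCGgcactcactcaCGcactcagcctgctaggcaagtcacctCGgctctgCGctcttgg
This window holds 21 CG pairs, against a median of 7 over 32851 windows of the same length, and 24.8% of those windows hold as many. Its G and C content is 60%, against a median of 52.7%. The E-box letters CANNTG, which read the same on both strands, occur at positions 146 and 190 counted from the first base, and 72.3% of all windows hold them. No match on either strand was found for the short CRE letters TGACG (in 20.8% of windows), the SP box GGGCGG (35.7%), the CCAAT box CCAAT (37.4%) or the TATA box TATAAA (13.6%).

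Values are in the authors' normalised units, which have no absolute scale, and each region was normalised on its own, so levels are set side by side within a region only. Library totals of these values ran from 2095138 to 2444486 in the prefrontal cortex and from 3267967 to 4021272 in the amygdala, and no gene is listed at 0. The read depth behind a value is not known. On the scale log2(value − 1), with each gene centred, the prefrontal libraries spanned 10 of 12 possible dimensions and the amygdala libraries 11 of 12. Prefrontal Res-T with trauma replicate 1 had the highest weight in the missing prefrontal dimensions, 0.7312, against 0.0423 to 0.2640 for the other prefrontal libraries. The 3 amygdala Res-T libraries without trauma had weights of 0.0002 or less in the missing amygdala dimension, the other amygdala libraries 0.0074 to 0.2731. Oligodendrocyte markers were present in every library of the neuron sort, at 2.87% to 9.74% of the prefrontal total (16 of 21 markers measured) and 2.14% to 8.12% of the amygdala total (21 of 21). Of 48 pan-neuronal genes 8 were measured in the prefrontal cortex and 25 in the amygdala, and of 32 genes of excitatory pyramidal neurons 5 and 14. Of the genes that define excitatory neurons, Slc17a7, the vesicular glutamate transporter, has no value here in either region and Camk2a none in the prefrontal cortex.

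In the medial prefrontal cortex Snhg11 was low in 1 of the 4 groups. Its value was 614.7, 574.1, 346.3 and 335.0 in Sus-T with trauma, and 82.65, 62.14 and 63.31 in Res-T with trauma. Every Sus-T library with trauma lay far above every Res-T library with trauma, and the lowest of them was above 4 times the highest of the others. It was 469.9 and 350.4 in Sus-T without trauma, and 360.7, 342.0, 148.6 and 175.3 in Res-T without trauma. The Res-T libraries without trauma fell into a pair near the Sus-T values (replicates 1 and 2) and a lower pair (replicates 3 and 4). This group thus overlapped both Sus-T groups. In all 4 groups the libraries numbered 1 or 2 were higher in Snhg11 than those numbered 3 or 4, and the source of this split was not tested.

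As group means this is 467.5 ± 148 in Sus-T with trauma (SD, n = 4), against 69.37 ± 11.5 in Res-T with trauma (n = 3). Without trauma the means were 410.1 ± 84.5 in Sus-T (n = 2), against 256.6 ± 110 in Res-T (n = 4). In order of level the groups ran Res-T with trauma, Res-T without trauma, Sus-T without trauma and Sus-T with trauma. Only the first step of that order exceeds the spread, since the libraries of the other 3 groups overlap their neighbours in it. In bulk samples a lower share of cells that make an RNA and less of that RNA per cell cannot be told apart.

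**Figure D2:**
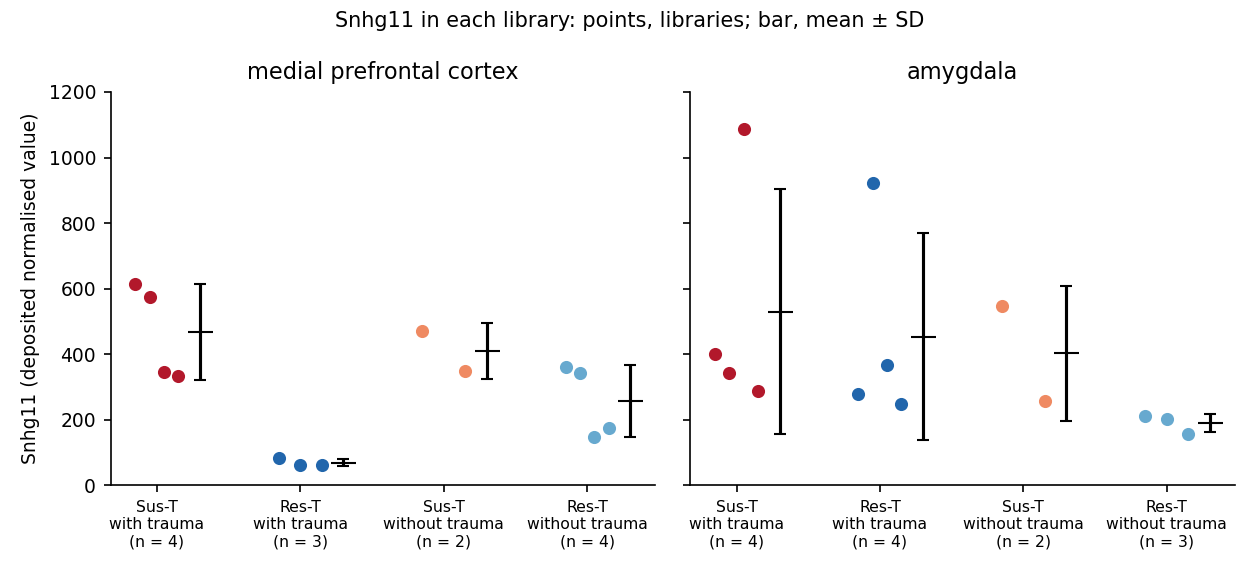
The deposited normalised value of Snhg11 (vertical axis, from 0) in each library (points) of 4 groups in each region, with the group mean and SD (bars); the regions were normalised separately. In the prefrontal cortex the 3 Res-T libraries with trauma sit between 62.14 and 82.65, below every other library, while in the amygdala 2 libraries, at 1086 and 921.2, stand far above the rest.

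In the comparison that asks how Sus-T and Res-T neurons differ after trauma, the prefrontal log2 difference of Snhg11, Sus-T minus Res-T on the log2(value + 1) scale, was 2.69 ± 0.33 (SE, limma, 4 against 3 libraries), or 6.46-fold. It ranked 39th by size among 6080 genes, and the median gene differed by 0.147. The difference was broad in this comparison. By limma with Benjamini-Hochberg adjustment over all genes at 0.05, 14.0% of genes were called higher and 8.93% lower in Sus-T, and 40.7% of genes did not overlap between the groups. Non-overlap is therefore common here, while few genes reach the size of the Snhg11 difference. Without Res-T replicate 1, the library with the highest weight in the missing dimensions, the difference was 2.82, and leaving out each library in turn gave 2.54 to 2.83.

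Without trauma the prefrontal difference of Snhg11, Sus-T minus Res-T, was 0.77 ± 0.38 with overlapping groups of 2 and 4 libraries, and 0% of genes were called by limma (630 at an unadjusted p under 0.05). In the comparison of mice with and without trauma, Snhg11 differed in Res-T by −1.78 ± 0.33, or 3.43-fold lower with trauma than without. The 62.14 to 82.65 of Res-T with trauma lay below the 148.6 to 360.7 of Res-T without trauma. Limma called 0% of genes in that comparison (899 at an unadjusted p under 0.05), and 13.1% of genes did not overlap. Snhg11 ranked 112th by size of 6080. In Sus-T the difference with trauma against without was 0.15 ± 0.38, with overlapping groups, 0% of genes called and 91 at an unadjusted p under 0.05. The trauma differences of Snhg11 thus stood 1.93 apart on the log2 scale between Sus-T and Res-T, a value given without a test. All 4 comparisons use the same libraries in pairs: Res-T with trauma enters the first and the third, so they are not separate evidence.

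Neuronal genes of the same prefrontal libraries were set beside Snhg11. The gene lists used here and below were chosen with earlier results of these data known, so their counts are a description. In Sus-T against Res-T with trauma, 4 of 8 measured pan-neuronal genes rose and 0 fell, beside 14.0% of all genes called higher and 8.93% lower. The list's median log2 difference was 0.45, against 0.15 over all genes. The 1397 genes called in the whole table became 886 without Sus-T replicate 3, and 624, 924 and 669 without Res-T replicates 1, 3 and 4. Those that rose are Rbfox1, a neuronal splicing regulator (2.33 ± 0.72, adjusted p = 0.0286 by limma), Vamp2, a synaptic vesicle fusion protein (1.18 ± 0.32, adjusted p = 0.0159), Camta1, a calmodulin-binding transcription factor (1.06 ± 0.32, adjusted p = 0.0234), and Pclo, the active zone scaffold piccolo (0.86 ± 0.24, adjusted p = 0.0192). The count of 4 fell to 0 without Sus-T replicate 3, without Res-T replicate 1 or without Res-T replicate 4, to 2 without Res-T replicate 3, and to 2 with limma's trend and robust options off. Not called were the ankyrins of the axon membrane, Ank2 (−0.12 ± 0.17) and Ank3 (−0.28 ± 0.19), the microtubule protein tau, Mapt (−0.17 ± 0.18), and the vesicle protein Sv2a (0.04 ± 0.24). The Snhg11 difference of 2.69 was larger in size than that of each of the 8.

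Of 5 measured genes of excitatory pyramidal neurons 3 rose and 0 fell, again beside 14.0% of all genes called higher, with a median of 0.81. Mef2c, a transcription factor of cortical excitatory neurons, had 1030, 1218, 1135 and 1608 in Sus-T with trauma, against 118.0, 152.3 and 88.8 in Res-T with trauma. Its difference of 3.38 ± 0.47 (adjusted p = 0.00108, limma) was larger than that of Snhg11, and the groups did not overlap. Arpp21, a cAMP-regulated phosphoprotein of forebrain neurons, differed by 1.71 ± 0.37 (adjusted p = 0.00596) and its relative Arpp19 by 0.81 ± 0.27 (adjusted p = 0.0396). The layer 4 transcription factor Rorb (0.17 ± 0.54) and the glutamate receptor subunit Gria2 (−0.35 ± 0.34) were not called.

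Taken relative to the mean log2 value of the 8 pan-neuronal genes, the Snhg11 difference was 2.08 ± 0.36, and relative to the 5 excitatory genes it was 1.55 ± 0.40. In the comparison of Res-T with and without trauma, Snhg11 relative to these means differed by −1.51 ± 0.36 and −1.18 ± 0.40. The excitatory list was used in this way after its values were seen. Oligodendrocyte markers moved in the other direction: 12 of 16 measured members fell in Sus-T against Res-T with trauma and 0 rose, beside 8.93% of all genes called lower, with a median of −1.23. They made up 3.02% to 5.06% of the total in Sus-T with trauma and 6.13% to 8.41% in Res-T with trauma, while without trauma they made up 2.87% to 4.21% in Sus-T and 3.70% to 9.74% in Res-T, with none at 0. With the mean of this list as a covariate, an alternative added after seeing the data, the Snhg11 difference was 2.47 ± 0.49. That mean was 10.48 to 11.39 in Sus-T and 11.79 to 12.24 in Res-T with trauma (log2). The groups do not overlap in it, so this covariate cannot be told apart from the group. Of the other cell types, 1 of 7 astrocyte, 1 of 3 inhibitory neuron and 1 of 2 oligodendrocyte precursor markers rose and 0 fell. Over all genes 14.0% were called higher. These lists, like those of the 5 excitatory and 8 pan-neuronal genes, are too small for a close comparison. The part of the oligodendrocyte and other markers in the lower Snhg11 of Res-T with trauma was not tested.

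**Figure D3:**
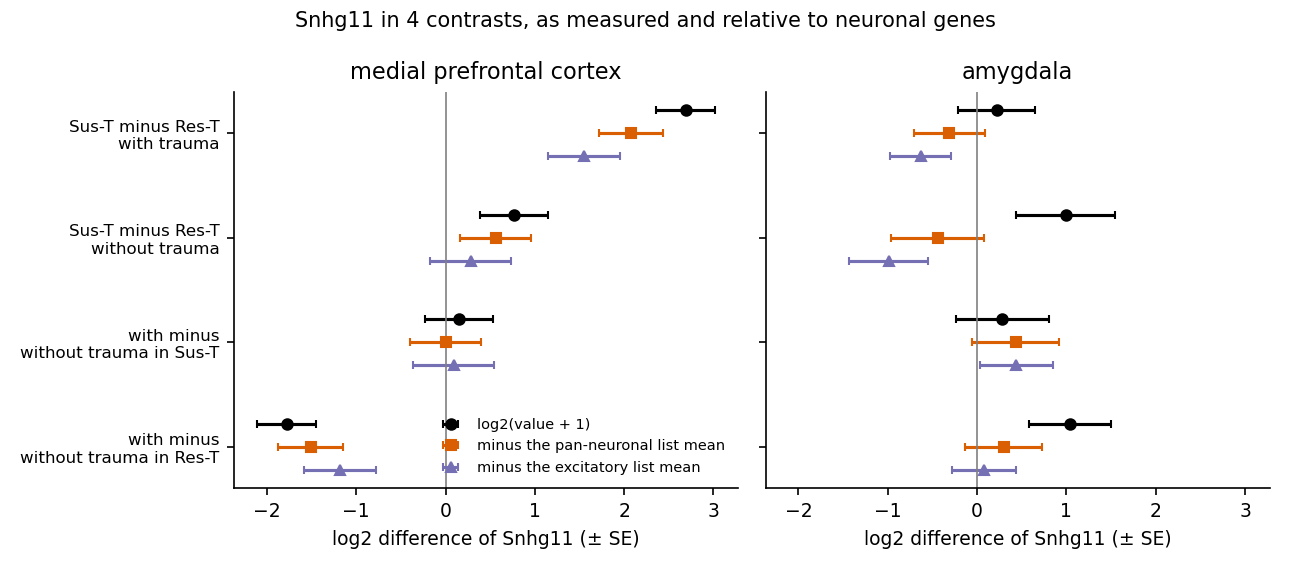
Log2 differences of Snhg11 (horizontal axis, ± SE from limma) in 4 comparisons (rows) of each region, as measured (circles), relative to the mean of the measured pan-neuronal genes (squares) and relative to that of the excitatory genes (triangles). The prefrontal difference after trauma stays above 1.5 on all 3 scales, at 2.69, 2.08 and 1.55, whereas both amygdala differences between Sus-T and Res-T turn negative on the relative scales.

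In the amygdala Snhg11 did not show the prefrontal pattern. Its value was 401.6, 341.4, 1086 and 288.0 in Sus-T with trauma, and 279.4, 921.2, 365.7 and 247.3 in Res-T with trauma. These groups overlap throughout, and each holds 1 library far above its other 3. It was 548.5 and 257.0 in Sus-T without trauma, and 210.8, 202.3 and 158.2 in Res-T without trauma. The 3 Res-T libraries without trauma are the lowest of the 13. They carry almost no weight in the missing dimension (0.0002 or less), which lies among the other libraries. The means were 529.2 ± 374 in Sus-T with trauma (SD, n = 4), 453.4 ± 316 in Res-T with trauma (n = 4) and, without trauma, 402.8 ± 206 in Sus-T (n = 2) and 190.4 ± 28.2 in Res-T (n = 3). Of these levels only that of Res-T without trauma lies outside the range of the next group in order.

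After trauma the amygdala difference of Snhg11, Sus-T minus Res-T, was 0.22 ± 0.43 (SE, limma, 4 against 4 libraries). It was −0.20 without Sus-T replicate 3, 0.63 without Res-T replicate 2, and 0.21 ± 0.26 without both, the pair of libraries highest in Snhg11. In this comparison 0% of 9872 genes were called (1142 at an unadjusted p under 0.05). The prefrontal and amygdala differences after trauma were 2.69 and 0.22, and as the tables were normalised separately the difference between them was not tested.

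Without trauma the Sus-T minus Res-T difference in the amygdala was 0.99 ± 0.55, or 1.98-fold, and the groups of 2 and 3 libraries did not overlap. It was 0.44 without Sus-T replicate 1 and 1.53 without Sus-T replicate 3. Non-overlap held for 58.9% of all genes there, and limma called 12.4% of genes higher and 15.0% lower, so it says little about Snhg11. The 2706 genes called became 1565 without Sus-T replicate 1 and 1843 to 2096 without any 1 of the other libraries. Neuronal genes and some glial markers were higher in the same comparison. Of 25 measured pan-neuronal genes 16 rose and 4 fell, with a median of 1.76, against −0.03 over all genes. Bsn, the active zone scaffold bassoon, rose by 3.93 ± 0.39 (adjusted p = 1.5e-05, limma), Dlg4, the postsynaptic scaffold PSD-95, by 2.73 ± 0.31 (adjusted p = 2.3e-05) and Syn1, the vesicle phosphoprotein synapsin I, by 2.02 ± 0.24 (adjusted p = 2.5e-05). The 4 that fell are Mapt, Ank3, Sv2a and Elavl3, between −0.62 and −1.01. Of 14 excitatory genes 12 rose and 0 fell, with Camk2a, a kinase activated by calcium at glutamatergic synapses, at 5.04 ± 0.58 (adjusted p = 4.3e-05). Oligodendrocyte markers fell in 19 of 21 and rose in 0, with a median of −1.99. Astrocyte markers rose in 8 of 15 and fell in 0 (median 1.03), microglia markers rose in 3 of 3 (median 1.65), and oligodendrocyte precursor markers rose in 1 of 6 and fell in 4 (median −1.07). The astrocyte list took 1.34% to 2.53% of the total in Sus-T and 0.447% to 0.667% in Res-T, with none of these markers at 0, and the part of these 3 lists in the Snhg11 difference was not tested. The oligodendrocyte markers took 2.14% to 3.21% of the total in these Sus-T libraries and 6.98% to 8.12% in the Res-T ones, and with their mean as a covariate the Snhg11 difference was 0.70 ± 1.68. The groups do not overlap in that mean, so the covariate cannot be told apart from the group. Relative to the pan-neuronal mean the Snhg11 difference was −0.44 ± 0.52 and relative to the excitatory mean −0.99 ± 0.44, so its difference was below the mean difference of both lists.

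With trauma against without, Snhg11 in Res-T amygdala differed by 1.04 ± 0.46, or 2.06-fold, and the 247.3 to 921.2 of the libraries with trauma lay above the 158.2 to 210.8 of those without. Limma called 3.30% of genes higher and 2.88% lower, and 23.1% of genes did not overlap. Without Res-T replicate 2 with trauma the difference was 0.63. Pan-neuronal genes rose in 9 of 25 and fell in 0 (3 or 4 rose when any 1 of the libraries without trauma was left out), among them Eno2, the neuronal enolase (1.68 ± 0.32, adjusted p = 0.0104), and Bsn (1.59 ± 0.33, adjusted p = 0.0117). Excitatory genes rose in 5 of 14 and fell in 0 (2 rose without any 1 of the libraries without trauma, 3 without replicate 1, 2 or 3 with trauma, and 2 with limma's trend and robust options off). Oligodendrocyte markers fell in 3 of 21 and rose in 0, with a median of −0.55, and took 5.19% to 6.99% of the total in Res-T with trauma and 6.98% to 8.12% in Res-T without trauma. With their mean as a covariate the Snhg11 difference was 0.96 ± 0.66, but the groups do not overlap in that mean either. The 610 genes called in the whole table became 322 without replicate 3 with trauma, and 101, 142 and 163 without replicates 1, 2 and 3 without trauma. Relative to the pan-neuronal mean the Snhg11 difference was 0.30 ± 0.43. In Sus-T amygdala the difference with trauma against without was 0.28 ± 0.52 with overlapping groups. It was −0.27 to 0.82 on leaving out each library in turn and −0.14 without the pair of libraries highest in Snhg11. Limma called 0.0304% of genes in that comparison, 3 of 9872.

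The next question was whether Snhg11 follows neuronal genes from library to library within a group, after each group's mean log2 value is taken away. Over the 13 prefrontal libraries Pearson's r with the mean of the 8 pan-neuronal genes was −0.03 (Spearman's rho −0.05). It was −0.22 without the 2 libraries farthest in the list mean, 0.07 without the 2 farthest in Snhg11, and −0.41 to 0.19 on leaving out each library in turn. The sign of this r thus depended on which libraries were kept. Without centring by group r was 0.75, which restates that both were lower in Res-T with trauma. The r of single pan-neuronal genes ran from −0.39 for Rbfox1 to 0.37 for Camta1 and Vamp2, with a median of 0.01, against 0.00 over all other genes. With the mean of the 5 excitatory genes r was 0.30 (rho 0.35), −0.03 without the 2 libraries farthest in that mean and 0.50 without the 2 farthest in Snhg11, and the highest single r was 0.51 for Arpp21. With the oligodendrocyte mean it was −0.18 (rho 0.00). All libraries of a region share 1 normalisation, and these correlations are descriptions over 13 points that hold 9 free deviations or fewer.

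In the amygdala r with the mean of 25 pan-neuronal genes was 0.39 (rho 0.35) and with that of 14 excitatory genes 0.59 (rho 0.47). Leaving out the 2 libraries farthest from their group mean in Snhg11, Sus-T replicate 3 and Res-T replicate 2 with trauma, gave 0.22 and 0.18, and leaving out the 2 farthest in the list mean gave 0.52 and 0.75. The single genes pointed both ways, with 14 of 25 pan-neuronal r above 0 and a median of 0.10. Over all other genes 4715 of 9871 had an r above 0, with a median of −0.02 and a range of −0.96 to 0.95. Syn1 had the highest r, 0.87, and 0.75 without these 2 libraries. It had 481.5, 417.6, 565.2 and 447.4 in Sus-T with trauma, and 250.8, 362.5, 275.5 and 259.0 in Res-T with trauma, so its highest library in each group with trauma is the one in which Snhg11 is highest. Ank3, which organises the axon initial segment, had the lowest r, −0.84, and −0.78 without these 2. Grin2b, an NMDA receptor subunit, had 0.83 with all libraries and 0.16 without the 2.

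**Figure D4:**
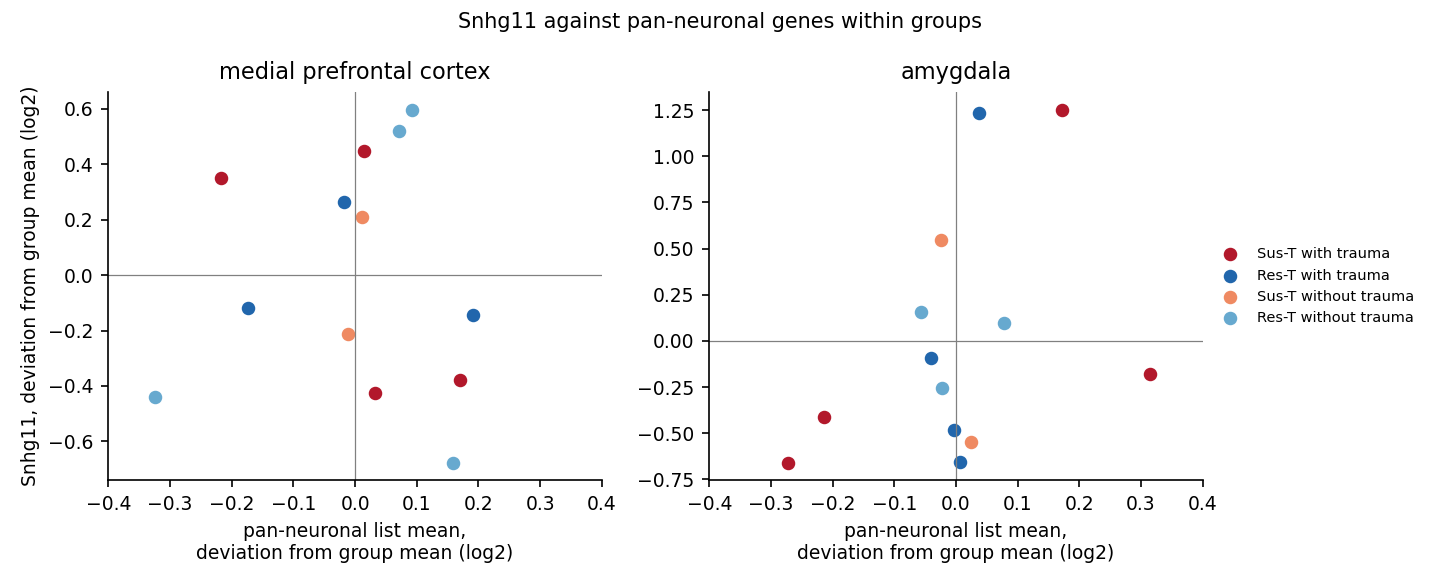
Deviation of Snhg11 from its group mean (vertical axis, log2) against the deviation of the pan-neuronal list mean (horizontal axis, log2) in each library, with 1 point per library coloured by group. In the prefrontal cortex r is −0.03 over 13 libraries, and in the amygdala (r = 0.39) the 2 highest points are Sus-T replicate 3 and Res-T replicate 2 with trauma.

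Among all 6080 prefrontal genes, those whose group-centred profile was most like that of Snhg11 over 13 libraries were ranked by r, leaving out predicted genes. In each group the Snhg11 profile sets libraries numbered 1 or 2 above those numbered 3 or 4. A gene with the same split thus ranks high and one with the reverse split low. Whether this likeness goes beyond a split of the libraries was not tested. Cd200 was first at 0.876. It encodes a membrane glycoprotein of neurons that binds a receptor on microglia. Its value was 138.0, 89.15, 50.77 and 59.66 in Sus-T with trauma, against 13.22, 13.31 and 12.29 in Res-T with trauma. Without trauma it was 71.59 and 84.31 in Sus-T, against 67.11, 96.48, 9.812 and 24.80 in Res-T. Cd200 thus shares with Snhg11 low values in Res-T with trauma and the higher and lower pairs of Res-T without trauma. Unlike for Snhg11, 1 Res-T library without trauma, at 9.812, lay below the 12.29 to 13.31 of Res-T with trauma.

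Robo2, an axon guidance receptor for Slit proteins, followed at 0.860. Its means were 129.5 in Sus-T with trauma, 27.95 in Res-T with trauma and, without trauma, 120.5 in Sus-T and 77.25 in Res-T. Next came Zfp13, a zinc finger protein (0.860), Rtl8c, a gene derived from a retrotransposon (0.851), Cnot3, a subunit of the CCR4-NOT deadenylase (0.836), Ccnk, cyclin K (0.836), Cep164, a centriole appendage protein (0.826), Exd2, an exonuclease (0.824), Cmtr1, a cap methyltransferase (0.821), and Hsdl1 (0.819). Cd200, Robo2, Zfp13 and Rtl8c also had an r of 0.920 to 0.954 without centring, whereas Cnot3 did not follow Snhg11 between groups. It had 150.8 in Sus-T with trauma and 226.8 in Res-T with trauma, the opposite order to Snhg11, and an r without centring of −0.468. At the other end were Naa25, a subunit of an amino-terminal acetyltransferase (−0.886), Tmem168 (−0.851), Eefsec, the elongation factor for selenocysteine (−0.847), Rapgef6, an exchange factor for Rap (−0.833), and Dbf4, the activator of the Cdc7 kinase (−0.832).

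Without centring, which lets the group means count, the highest r belonged to Chl1, a neural adhesion molecule of the L1 family (0.959), Robo2 (0.954), Isoc1 (0.943), St3gal5, the GM3 ganglioside synthase (0.935), and Rps15a, a protein of the small ribosomal subunit (0.930). Chl1 had 198.1, 255.6, 189.5 and 169.3 in Sus-T with trauma, against 60.08, 40.66 and 66.25 in Res-T with trauma. Only part of this likeness was seen in the amygdala. The group-centred r there was 0.72 for Chl1, 0.68 for Hsdl1, 0.65 for Zfp13, 0.44 for Exd2, 0.32 for Ccnk and 0.29 for St3gal5. It was 0.01 for Rps15a, −0.02 for Isoc1, −0.14 for Cnot3, −0.16 for Cd200, −0.35 for Cep164 and −0.51 for Cmtr1. For the genes lowest in the prefrontal ranking it was −0.84 for Rapgef6, −0.63 for Naa25 and −0.01 for both Tmem168 and Eefsec. Robo2, Rtl8c and Dbf4 have no amygdala value here. A ranking of 6080 genes over 13 libraries gives high r to some genes in any data, and these are named as the extremes of that ranking.

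**Figure D5:**
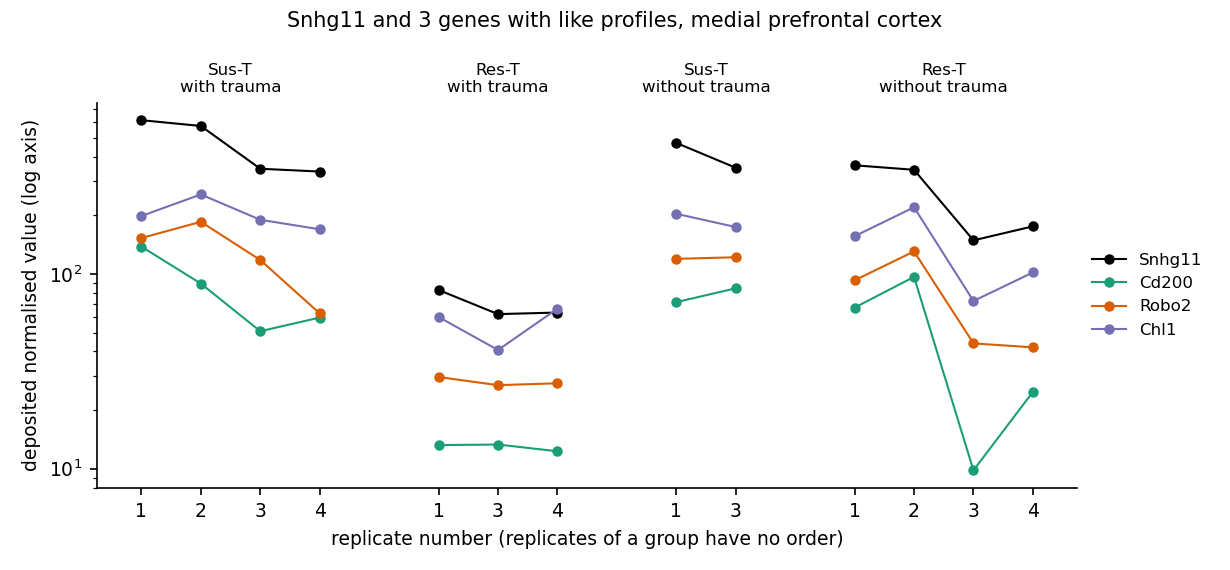
Deposited normalised values (log axis) of Snhg11 and of 3 genes from the top of the likeness rankings, Cd200, Robo2 and Chl1, in each prefrontal library, in 4 groups; lines join the libraries of a group only to guide the eye. All 4 genes are low in Res-T with trauma, where Snhg11 has 62.14 to 82.65 and Cd200 12.29 to 13.31. In Res-T without trauma they are split into a higher pair (replicates 1 and 2) and a lower pair (replicates 3 and 4).

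The neighbours of Snhg11 on chromosome 2 were compared in the same way. In the prefrontal table the nearest measured genes are Rprd1b, a regulator of RNA polymerase II, 243341 bases before it, Tti1, a cofactor of the PIKK kinases, Ppp1r16b, a phosphatase 1 subunit, 279253 bases after it, and Top1, topoisomerase I, 2259743 bases after it. Rprd1b had 264.0 ± 80.2 in Sus-T with trauma (SD, n = 4), against 154.1 ± 33.1 in Res-T with trauma (n = 3), a difference of 0.74 ± 0.33 (adjusted p = 0.115, limma) with overlapping groups. Tti1 (−0.08 ± 0.33) and Ppp1r16b (−0.06 ± 0.24) were not called. Top1 was the 1 neighbour called by limma, and it fell by 0.67 ± 0.23 (adjusted p = 0.0421), the direction opposite to Snhg11. Over all genes 14.0% were called higher and 8.93% lower, so 1 call among so few genes says little about the locus. No other gene measured in either table overlaps Snhg11.

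In the amygdala the nearest measured gene is Ralgapb, a subunit of a Ral GTPase-activating complex, 23703 bases after Snhg11. In Sus-T against Res-T without trauma it differed by 0.03 ± 0.21 (843.5 ± 86.0, n = 2, against 827.7 ± 80.2, n = 3) and was not called. Rprd1b rose by 1.38 ± 0.26 (adjusted p = 9.1e-04, limma), Actr5, a chromatin remodelling subunit, fell by 2.53 ± 0.70 (adjusted p = 0.0126), and Tgm2, a transglutaminase, was not called (1.15 ± 0.60, adjusted p = 0.171). Calls were common in this comparison, with 12.4% of all genes called higher and 15.0% lower.

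Other snoRNA hosts and long noncoding RNAs gave little to set beside Snhg11. Of 23 listed snoRNA hosts 0 were measured in the prefrontal cortex, and of 35 listed long noncoding RNAs 0 were measured there and 1 in the amygdala. In GENCODE M21 terms 5983 of 6080 prefrontal and 9677 of 9872 amygdala genes are protein coding, the type this annotation also gives Snhg11. In Sus-T against Res-T amygdala without trauma the host Eef1b2, an elongation factor gene, rose by 1.21 ± 0.34 (adjusted p = 0.0129, limma). Tunar, a long noncoding RNA of neural cells, had 11.30 ± 5.73 in Sus-T (SD, n = 2), against 9.399 ± 7.20 in Res-T (n = 3), and was not called (0.49 ± 0.72).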

How the data were processed

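Per the labels' protocols, neurons were sorted from dissociated tissue punches, and libraries for paired-end sequencing were made with a kit for very small RNA inputs that removes ribosomal RNA. Per the submitters' processing notes, bcl2fastq 2.20 and Salmon 1.2 were used on GRCm38.p6. The deposited values were taken as a signal that the authors had normalised before deposit by a method not given in the sources used here. Of 29 labelled samples 26 have columns, and the other 3 were not used here. Each library's values are identical in every table that holds it.

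Values were analysed as log2(value + 1). All genes had a mean of at least 1. In each region 1 linear model of the 4 groups was fitted over all genes with limma 3.58.1 in R 4.3.3 (empirical Bayes with trend and robust options), and p-values were adjusted by Benjamini-Hochberg, with a threshold of 0.05. A count-based test was not used because the unit is a normalised signal. The p-values count each library as independent and do not allow for the missing dimensions, so they may be too low. The fit was tested on simulated data. Correlations and tables used Python 3.11.15, numpy 2.4.6, pandas 2.3.3 and scipy 1.17.1, and figures matplotlib 3.10.9.

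Snhg11 and all 10 gene lists were chosen with earlier results of these data known. Besides Snhg11, genes were named by a rule: the 10 highest and 5 lowest group-centred correlations and the 5 highest uncentred ones in the prefrontal cortex, up to 4 called pan-neuronal and excitatory genes per direction and comparison, measured snoRNA hosts and long noncoding RNAs, and the 2 nearest measured genes on each side. A result that this rule would add is not reported here. Other genes, such as uncalled list members and single correlations, were named after their values were seen. Symbols and positions came from GENCODE M21, matched for 6080 of 6080 prefrontal and 9871 of 9872 amygdala identifiers. Alternatives were quantile normalisation, equal library totals, a pseudocount of 10, a mean of at least 10, each library left out, the replicate number as a block, limma without trend and robust options, only the 2 groups compared, and Snhg11 relative to neuronal lists.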

Additional observations from a re-analysis of the deposited data

Results flagged for a closer look

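In amygdala Sus-T with trauma the highest library, replicate 3, had 1086 for Snhg11, against 288.0 to 401.6 in the other 3, and its gap to the next library was 0.858 of the group's range. In amygdala Res-T with trauma the highest library, at 921.2, had a gap of 0.824 of the range. The groups of 4 were screened for such gaps by a rule that marks about 1 in 20 groups by chance, and as Snhg11 was selected on its values the gaps are a description and not a test.

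The difference between mice with and without trauma in Res-T had opposite signs in the regions. In the prefrontal cortex every library with trauma was below every library without it (log2 difference −1.78), and in the amygdala every library with trauma was above every one without it (1.04). The regions were normalised separately, and this contrast between them was not tested.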

How the results depend on the processing

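Snhg11 differences moved by less than their spread between libraries (SD 0.485 in the prefrontal cortex and 0.753 in the amygdala, log2) under quantile normalisation, equal totals, a pseudocount of 10, a mean of at least 10, limma without trend and robust options, only the 2 groups compared and the replicate block, which gave 2.55 for the prefrontal difference after trauma. Taken relative to the pan-neuronal mean they moved to 2.08 in the prefrontal cortex after trauma and to −0.44 in the amygdala without trauma. Relative to the excitatory mean they moved to 1.55 and −1.18 in the prefrontal cortex (after trauma, and trauma in Res-T) and to −0.63, −0.99 and 0.08 in the amygdala (Sus-T minus Res-T after and without trauma, and trauma in Res-T). The lists' own differences between groups enter these values by construction.

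Calls of neuronal genes depended more on the setting. Without trend and robust options 2 pan-neuronal prefrontal genes were called after trauma (4 with them), and 2 excitatory amygdala genes for trauma in Res-T (5 with them). With the replicate block 1 pan-neuronal amygdala gene was called after trauma, against 0 without it. Leaving out each library gave 0 to 4 pan-neuronal prefrontal calls after trauma, 0 to 2 with 0 to 1 excitatory ones for trauma in prefrontal Res-T, 0 to 2 with 0 to 1 in the amygdala after trauma, and 3 to 11 with 2 to 4 for trauma in amygdala Res-T. The cause was not tested. Calls over all genes ranged from 624 to 1163 in the prefrontal cortex after trauma (1397 with all libraries), from 0 to 588 for trauma in prefrontal Res-T (0), from 0 to 53 without trauma in the prefrontal cortex (0), from 1565 to 2096 without trauma in the amygdala (2706), from 101 to 708 for trauma in amygdala Res-T (610; 339 without trend and robust options) and from 1 to 287 for trauma in amygdala Sus-T (3; 16 to 28 under quantile normalisation, equal totals, the pseudocount or the mean filter). In the amygdala after trauma 0 to 12 were called (0; 10 with the block, 1 or 2 under quantile normalisation, equal totals, the pseudocount or the mean filter).

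The correlation of Snhg11 with the pan-neuronal mean was −0.41 to 0.19 in the prefrontal cortex and 0.20 to 0.65 in the amygdala on leaving out each library, 0.75 in the prefrontal cortex without centring, and 0.15 and 0.31 with the replicate block. Same-numbered libraries of different groups had a correlation of deviations over 0.1 in 3 of 16 pairs in each region. Of the libraries, 1 of 13 prefrontal and 2 of 13 amygdala ones correlated best with their own number. This check over all genes showed no pairing by number. It compares same-numbered libraries only and does not address a split of numbers 1 and 2 against 3 and 4. Snhg11 itself, however, lay above its prefrontal group mean in every library numbered 1 or 2, and below it in every one numbered 3 or 4. The source of this split was not tested. The replicate block moved no other reported result by over 1.5 times or past its spread. The depth of the libraries is not known, so what it limits cannot be given.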

Other observations

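The genes whose group-centred amygdala profiles were most like that of Snhg11 over 13 libraries were taken after their values were seen. They are Actn1, the actin crosslinker alpha-actinin 1 (r = 0.949), Dnm1, the dynamin of synaptic vesicle retrieval (0.947), Antxr1, an anthrax toxin receptor (0.928), Rundc1 (0.915) and Reln, the secreted glycoprotein reelin (0.913). Reln had 137.0, 85.85, 973.6 and 110.6 in Sus-T with trauma, against 181.7, 397.7, 217.1 and 83.14 in Res-T with trauma. Without trauma it had 182.0 and 58.03 in Sus-T, against 54.48, 60.58 and 23.69 in Res-T. Its highest library in each group with trauma is the one in which Snhg11 stood far above the others. Dnm1 had 705.5 in the Sus-T library and 407.7 in the Res-T library of that pair, the highest of each group.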
